A study of Mus musculus with 3 samples.

Results

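The 8 genes that encode CD94, the NKG2 receptors and the KLRE and KLRI receptors were measured in sorted mouse NK cells from lung and blood. They are Klrd1, Klrc1, Klrc2, Klrc3, Klrk1, Klre1, Klri1 and Klri2, chosen by their symbols in the gene list of the files, and they are 8 of 25906 genes. All 8 lie next to each other in the natural killer gene complex, within 162580 bases of chromosome 6 from 129577905 to 129740484 (GRCm38, GENCODE M21). On the plus strand lie Klre1 (ENSMUSG00000050241, 129577905 to 129585827) and Klrd1 (ENSMUSG00000030165, 129591782 to 129598775). The 6 others are read from the minus strand, in the order Klrk1 (ENSMUSG00000030149, 129610323 to 129623864), Klrc3 (ENSMUSG00000033027, 129639064 to 129643337), Klrc2 (ENSMUSG00000052736, 129647496 to 129660689), Klrc1 (ENSMUSG00000030167, 129666015 to 129678973), Klri1 (ENSMUSG00000067610, 129697218 to 129717132) and Klri2 (ENSMUSG00000043932, 129729041 to 129740484). The mice were female, wild-type and 9 weeks old, on the C57BL/6 background, and they were either naive or had received 100000 PyMT cells, a mammary tumor line of the same background, into the tail vein 6 h or 14 days before the cells were taken. The sort took viable cells positive for NK1.1 and NKp46 in both tissues, and lung cells had been through enzymatic digestion whereas blood cells had not. Each time point is 1 droplet library in which lung cells carried the hashtag B0304 and blood cells the hashtag B0306, as the methods list tissues and tags in that order. Each group held cells of 5 mice, as the study describes it, and the files do not tell the mice apart, so the spread between mice could not be measured.

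CD94, the product of Klrd1, is an invariant chain that reaches the cell surface with a partner of the NKG2 family. With NKG2A (Klrc1) it forms an inhibitory receptor for the nonclassical class I molecule Qa-1, and with NKG2C (Klrc2) or NKG2E (Klrc3) it forms activating receptors for the same ligand. NKG2D (Klrk1) stands apart, since it pairs with itself, signals through the adaptors DAP10 and DAP12, and binds stress-induced ligands of the H60, RAE-1 and MULT1 families on tumor and infected cells. KLRE1 is the shared chain of another receptor pair, inhibitory with KLRI1 and activating with KLRI2. In C57BL/6 mice NKG2A is carried by only some NK cells, as are the Ly49 receptors, so that single cells differ in the inhibitory receptors they hold.

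The sequences before the start sites are shown for the CD94 partner genes, of which Klrc2 and Klrc3 are close copies with different levels below, and for Klrk1, which differed most between tissues among the members found in nearly every cell, as RefSeq gives them for GRCm38.p6. Klrc2 and Klrc3 shared 98.0% of 251 aligned positions over the 250 bases before their starts, with 3 substitutions and 2 inserted or missing bases. For Klrc2 the RefSeq entry most like Klrc3 was taken, so this share is the highest among its entries. Only the part that lies before every annotated start of either gene is printed, 116 bases at chr6:129660690-129660805 for Klrc2 and 117 bases at chr6:129643422-129643538 for Klrc3, both on the minus strand, and capitals mark where the 2 differ.
Klrc2: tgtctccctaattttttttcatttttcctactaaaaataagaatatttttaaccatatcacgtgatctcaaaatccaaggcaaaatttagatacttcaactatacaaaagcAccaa
Klrc3: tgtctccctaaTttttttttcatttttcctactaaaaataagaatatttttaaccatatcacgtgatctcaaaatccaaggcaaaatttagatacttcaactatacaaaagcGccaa

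Klrc1 shared only 52.2% with Klrc2 over the same 250 bases, about as much as with Klre1 (50.75%), Klri1 (50.74%) and Klrk1 (49.44%). The next lines give Klrc1 at chr6:129678974-129679223 and Klrk1 at chr6:129623865-129624114, minus strand in both cases, with capitals where the letters TGTGGT, the core of RUNX motifs, occur on either strand.
Klrc1: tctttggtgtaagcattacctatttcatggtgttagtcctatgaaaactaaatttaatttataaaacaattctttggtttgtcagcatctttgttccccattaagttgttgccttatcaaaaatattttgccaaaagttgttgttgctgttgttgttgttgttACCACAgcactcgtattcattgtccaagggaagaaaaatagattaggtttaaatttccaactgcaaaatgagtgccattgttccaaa
Klrk1: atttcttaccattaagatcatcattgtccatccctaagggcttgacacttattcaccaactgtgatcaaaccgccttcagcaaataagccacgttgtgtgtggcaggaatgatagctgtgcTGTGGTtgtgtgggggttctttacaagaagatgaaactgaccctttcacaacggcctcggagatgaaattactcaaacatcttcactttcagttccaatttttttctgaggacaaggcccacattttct

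These letters were found in 5 of the 6 members with an entry (Klrc1, Klrc2, Klrc3, Klrk1 and Klre1, not Klri1) and in 14.2% of all 27025 windows of the same length in the table. The matches of Klrc1 and Klrk1 lie before every annotated start of their gene, as does the more upstream of the 2 Klrc3 matches. The other Klrc3 match, both Klrc2 matches and the Klre1 window lie inside the genes as GENCODE annotates them. Klrc2 and Klrc3 are near copies, and their matches fall beyond the part printed above. The letters AGGTGT, the core that T-box factors bind, were found in 0 of the 6 and in 11.99% of all windows. These counts hold the Klrc2 entry picked for its likeness to Klrc3, whereas the other windows are the first entry of each gene. A match describes the letters only.

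The close copies also bear on the counts. Of all 90-base windows of the longest coding transcript, 23.8% in Klrc3 and 15.9% in Klrc2 occurred letter for letter in a transcript of another gene, in each case a Klrc gene. For Klrc1 this share was 20.1%, all with Klrc2, and 32.6% within the last 500 bases, where reads of a 3′ kit gather. Within the last 500 bases it was 5.84% in Klrc3 and 0 of 411 windows in Klrc2. Klrd1, Klrk1 and Klre1 had no shared window, and Klri1 and Klri2 had 5 in common. How reads were divided between Klrc genes was not tested, so the levels of Klrc1, Klrc2 and Klrc3 carry that uncertainty.

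With the stated limits on genes and mitochondrial counts, 2069 to 4680 cells per group were assigned to a tissue, with 16936897 to 35922737 UMIs per group and median UMIs per cell of 5910 to 7524. Libraries shared 6 to 16 cell barcodes in pairs. Of the 7 NK cell markers, Ncr1, Klrb1c, Gzma, Nkg7 and Tyrobp had a UMI in at least 93.4% of cells of every group. Ncr1 and Klrb1c encode the proteins used for the sort. Eomes had a UMI in 64.09% to 73.35% of cells, and Prf1 in 86.97% of cells in 14-day lung. The B cell genes Cd79a and Ms4a1 stayed below 0.5 CPM (summed UMI counts of a group, scaled to the same total in each group), and Cd79b reached 1.09. The B cell list summed to 35.6 to 56.2 CPM, nearly all of it Ighm, which had a UMI in 16.7% to 25.4% of cells, and the myeloid list to 89.99 to 191.7 CPM, with Itgax, which NK cells also express, at 72.1 to 97.5 and Lyz2 at up to 89.3, in 14-day blood. The summed level of the 7 T cell markers was 479 to 581 CPM, nearly all of it Trbc1 and Trbc2, with Cd3e at 0.725 to 5.04 CPM. By the marker with the smallest limit, free RNA could make up at most 7.14% of the naive, 3.96% of the 6 h and 0.729% of the 14-day counts. On that basis it was at most 12.5% of the level of any member (Klrd1 in naive lung). The marker was Ms4a1 in the naive and 6 h libraries and S100a9, with 0 counts in cells, at 14 days, where Ms4a1 gave 2.98%. Cells with 2 or more B cell markers numbered 5 to 16 per group and those with 2 or more myeloid markers 24 to 60, too few and too mixed with NK transcripts to serve as cells without these receptors, so the bound from free RNA is given beside shares of cells. A list of 6 genes that dissociation induces (Fos, Jun, Junb, Hspa1a, Hspa1b, Dnajb1) summed to 1306 to 1328 CPM in lung and 292 to 319 CPM in blood. Most of the lung sum was Junb, and single genes differed between the lung groups. In 14-day against naive lung, Jun had 217.0 against 106.4 CPM, Hspa1a 22.07 against 1.15 and Hspa1b 41.88 against 3.196. Junb was lower there, with 903.7 against 1058. Since each time point is 1 library, times could be compared but not tested, and intervals in brackets are exact 95% intervals of counting error only. In summed counts, fewer cells with a transcript and less transcript per cell cannot be told apart, and shares of cells are given for that reason.

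Among the CD94 and NKG2 genes, Klrd1 was found in nearly every cell, and its highest level was 1.38 times its lowest. It had 998.1 CPM in naive lung, 1177 in naive blood, 939.5 in 6 h lung, 1131 in 6 h blood, 1048 in 14-day lung and 1295 in 14-day blood. Every step in the order of the 6 groups was larger than its counting error. After each cell was thinned to 3000 UMIs, 90.5% to 96.2% of cells had a Klrd1 UMI, where free RNA alone could give at most 31.2%, 17.1% and 3.67% in the naive, 6 h and 14-day libraries.

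Klrc1, the inhibitory partner, was found in fewer cells and unevenly. Its levels were 237.9 CPM in naive lung, 273.3 in naive blood, 205.7 in 6 h lung, 238.6 in 6 h blood, 217.4 in 14-day lung and 294.6 in 14-day blood. Blood was above lung in each library, but naive lung and 6 h blood did not differ beyond counting error. A UMI was present in 31.4% to 41.5% of thinned cells, whereas counts of the same mean spread evenly over cells would give 46.2% to 59.1%, and free RNA alone at most 5.25%. The variance of Klrc1 counts over cells was 1.99 to 2.20 times their mean in the 6 groups, higher than for any other member (at most 1.91, for Klri1). This ratio was not corrected for level, and in naive lung Klri1 had a mean of 0.098 UMIs per thinned cell where Klrc1 had 0.724.

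The activating partners Klrc2 and Klrc3 were both lower in lung. Klrc2 had 401.6, 353.8 and 347.6 CPM in lung of the naive, 6 h and 14-day libraries and 539.6, 458.9 and 452.3 in blood. Klrc3 had 37.7, 31.2 and 29.7 CPM in lung and 82.8, 71.3 and 51.3 in blood. A Klrc3 UMI was found in 7.75% to 10.1% of thinned lung cells and in 14.7% to 20.6% of thinned blood cells, against at most 0.683% from free RNA.

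Klrk1 had 945.9, 899.8 and 985.2 CPM in lung of the naive, 6 h and 14-day libraries and 1523, 1397 and 1304 CPM in blood. The distance between lung and blood was thus smallest at 14 days, where the lung value was the highest of the 3 and the blood value the lowest. Thinned cells had a Klrk1 UMI in 90.7% to 97.3%, with at most 21.9% from free RNA.

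In the KLRE and KLRI group, Klre1 had 1198, 1106 and 934.4 CPM in lung and 1345, 1232 and 1138 CPM in blood, in the order naive, 6 h and 14 days. Klri1, the inhibitory partner, had 33.2, 26.3 and 17.6 CPM in lung and 51.8, 37.3 and 40.9 CPM in blood. Klri2, the activating partner, had 432.5, 394.1 and 364.8 CPM in lung and 504.8, 451.5 and 404.3 CPM in blood. In both tissues Klre1 and Klri2 were highest in naive and lowest in 14-day mice. Klri1 had a UMI in only 4.04% to 9.11% of thinned cells, and 6 h and 14-day blood did not differ beyond counting error. The ratio of Klri2 to Klri1 CPM was 9.74 to 12.1 in the 3 blood groups and 13.0, 15.0 and 20.8 in naive, 6 h and 14-day lung.

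**Figure D1:**
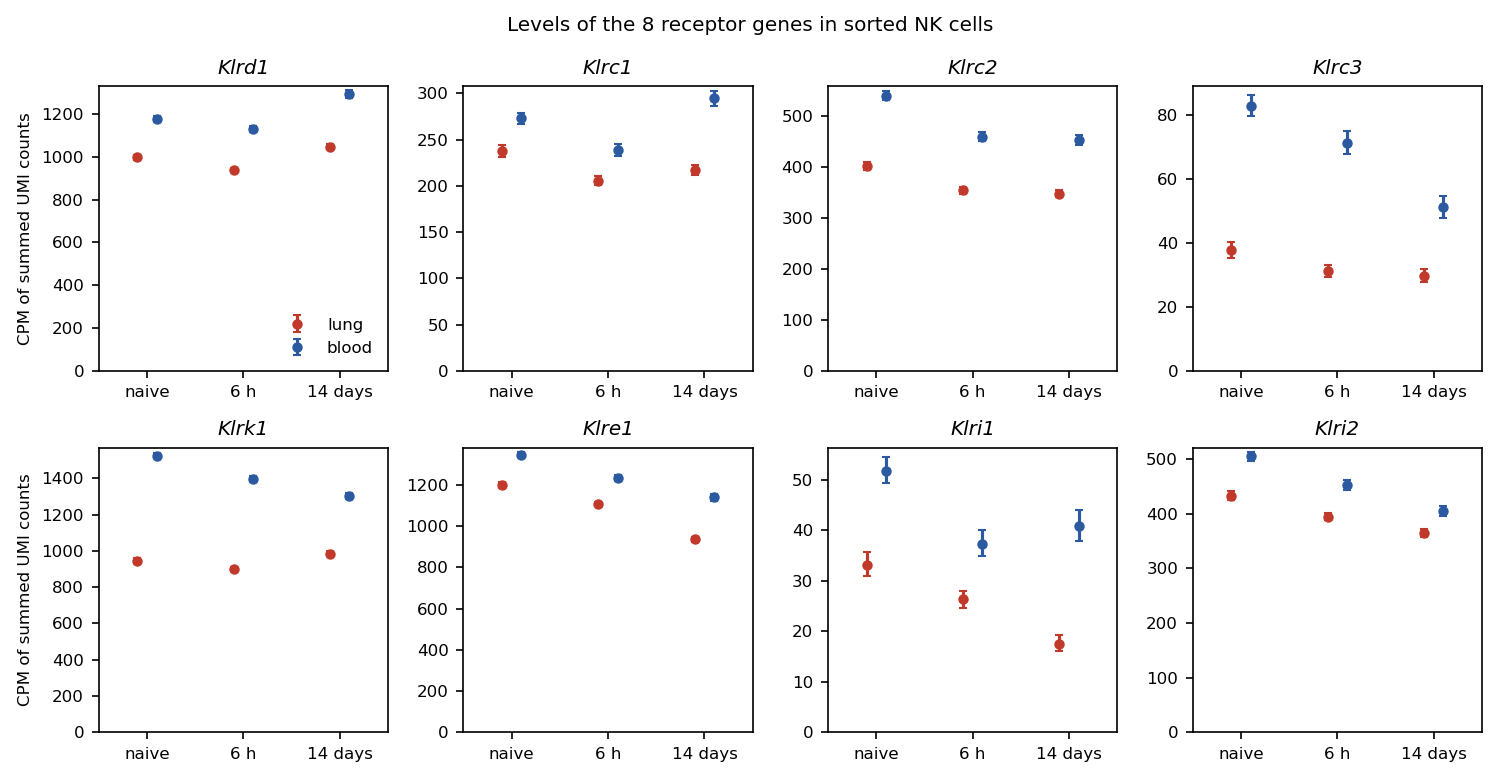
Levels of the 8 genes (y axes, CPM of summed UMI counts, each starting at 0) in lung (red) and blood (blue) of the naive, 6 h and 14-day libraries (x axes), where points are the group values and bars exact 95% Poisson intervals. Blood lies above lung in every library for every gene, with the widest distance on the ratio scale for Klri1 at 14 days, 17.6 against 40.9 CPM.

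Lung and blood NK cells of the same library were then compared, which asks how receptor transcripts differ with the site of the cells. All 8 genes were lower in lung than in blood in all 3 libraries, and these 24 ratios stayed below 0 on the log2 scale under every alternative tried. Their medians were −0.33, −0.32 and −0.39 (log2) in the naive, 6 h and 14-day libraries, beside −0.08, −0.09 and −0.10 over all 6324 genes with a mean of at least 20 CPM. Most of these genes lay below 0 too, as 64.5% lay below −0.018 at 6 h and 62.4% below −0.031 at 14 days. In the naive library 65.9% lay below 0.002. NK cell markers also differed between tissues, but not all in the same direction. Ncr1 had 896.3, 920.1 and 665.3 CPM in lung against 1533, 1526 and 1384 in blood. Klrb1c had 1071, 1076 and 1052 against 1292, 1278 and 1319, and Nkg7 and Tyrobp were also lower in lung in each library. Eomes was higher in lung in each, with 290.8, 249.1 and 222.7 against 272.1, 242.3 and 191.5. Gzma and Prf1 were higher in lung in the naive and 6 h libraries and lower at 14 days. The part of these markers in the result was not tested. A fold of at least 1.5 was used to call a gene.

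In the naive library, 3 of 8 members were called lower, beside 2.67% of all genes, and 0 were called higher, beside 5.93%. They were Klrc3 with a log2 ratio of −1.14 (−1.25 to −1.03), Klrk1 with −0.69 (−0.71 to −0.66) and Klri1 with −0.64 (−0.77 to −0.52). Klrc2 followed with −0.43, and Klrd1, Klrc1, Klre1 and Klri2 lay between −0.24 and −0.17. At 6 h, 2 of 8 members were lower, Klrc3 with −1.19 (−1.30 to −1.08) and Klrk1 with −0.64 (−0.66 to −0.61), beside 2.15% of all genes, and 0 higher, beside 5.68%. At 14 days, again 2 of 8 members were lower, beside 3.13%, and 0 higher, beside 4.87%. These were Klri1 with −1.22 (−1.39 to −1.05) and Klrc3 with −0.79 (−0.93 to −0.65), while Klrk1 had −0.40 and Klrc1 −0.44. Klrc3 was thus called in each library, and Klrk1 and Klri1 in 2 of the 3. When cells with a UMI of a T cell, B cell or myeloid marker were left out, the calls of Klri1 in the naive library (−0.08), Klrk1 at 6 h (−0.54) and Klrc3 at 14 days (−0.51) were lost. That filter removed 88.55% to 92.67% of cells per group, since NK cells hold Trbc1 and Trbc2 transcripts. Klrk1 at 6 h was also lost when ratios were centred on the median of all genes (−0.55), and Klri1 in the naive library under 5 more settings, at −0.58 to −0.52.

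The 3 libraries also allow a test of the tissue difference with the library as a block, added after the data had been seen. In edgeR's quasi-likelihood test with Benjamini-Hochberg adjustment over 6324 genes, 4 of 8 members were lower in lung, beside 9.47% of all genes. Klrc3 had a log2 difference of −0.96 with adjusted p = 0.00683, Klrc2 −0.31 with 0.0207, Klrk1 −0.49 with 0.0256 and Klri1 −0.70 with 0.0279, each lower in 3 of 3 libraries. Klrc1 (−0.20, adjusted p = 0.061), Klrd1 (−0.19, 0.0826), Klre1 (−0.12, 0.222) and Klri2 (−0.11, 0.228) did not pass in the same edgeR fit. The test treats libraries of 3 conditions as repeats, so its p-values measure only the spread between these libraries. Without the naive or without the 6 h library 1 member passed, which was Klrc3 (edgeR adjusted p = 0.0309 and 0.0313), and without the 14-day library all 8 did. The share of all genes called lower moved with these counts, from 0.822% and 0.743% without the naive and the 6 h library to 27.2% without the 14-day library. Without scaling factors beyond the totals, 7 members passed, beside 25.5% of all genes.

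**Figure D2:**
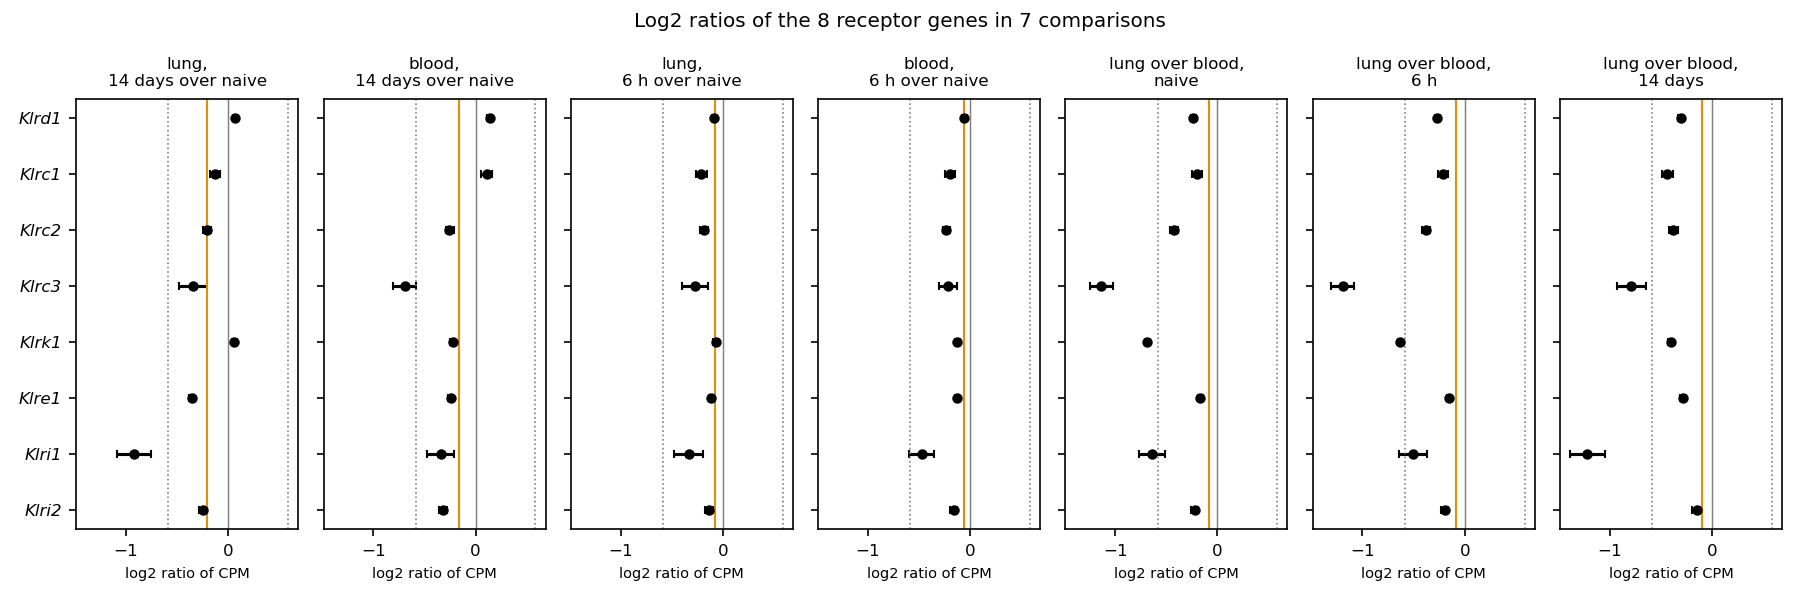
Log2 ratios of CPM (x axes) of the 8 genes (rows) in the 7 comparisons (panels), with exact 95% intervals of counting error. The grey line marks 0, dotted lines mark 1.5-fold and the orange line the median of all 6324 genes tested. In the 3 panels of lung over blood all 8 points lie left of 0 and left of the orange line, with Klrc3 at −1.14, −1.19 and −0.79.

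The tissue difference was also present within cells split by their UMIs of Cd27 and Itgam (CD11b), which mark early and late maturation of NK cells. Over the 4 gates and 3 libraries, each member was lower in lung in 12 of 12 comparisons, and the interval lay below 0 in all 12 for Klrd1, Klrc2, Klrc3, Klrk1 and Klre1, in 11 for Klri1 and Klri2 and in 10 for Klrc1. Median log2 ratios within gates were −1.02 for Klrc3, −0.72 for Klri1 and −0.63 for Klrk1. No share over all genes was taken within these gates. In cells with Cd27 alone, Klrc1 had −0.09 in the naive library and −0.94 at 14 days. Since dissociation genes moved with the tissue, the ratios were also taken in cells with at most 1 UMI of that list after thinning, 25.1% to 26.6% of lung cells and 75.8% to 77.5% of blood cells. There all 24 ratios were below 0 as well, with Klrc3 at −1.14, −1.495 and −1.03 and Klrk1 at −0.65, −0.59 and −0.36 in the same order of libraries. The interval included 0 for Klri1 at 6 h, at −0.14 (−0.51 to 0.22), and for Klri2 at 14 days, at −0.08 (−0.19 to 0.03). No share or median over all genes was taken in these cells. The lung cells among them had been digested as well, so the part of dissociation in the ratios was not tested.

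**Figure D3:**
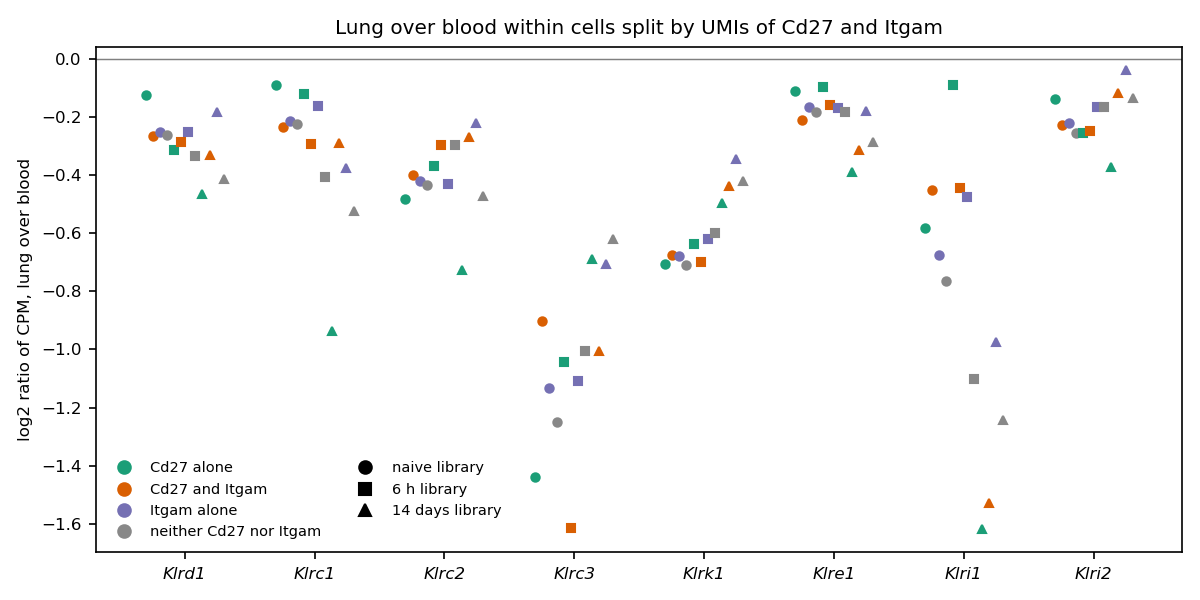
Log2 ratio of CPM, lung over blood (y axis), of each gene (x axis) within 4 gates of cells (colors) in the 3 libraries (symbols), so that each gene has 12 points. All points lie below 0, from −0.04 for Klri2 to −1.62 for Klri1.

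Cells from mice 14 days after tumor cell injection were compared with cells from naive mice of the same tissue, which asks how receptors differ late after the injection. In lung, 1 of 8 members was called lower, beside 10.5% of all genes, and 0 were called higher, beside 3.53%. This was Klri1, with a log2 ratio of −0.92 (−1.08 to −0.75). Klre1 had −0.36, Klrc3 −0.34, Klri2 −0.25, Klrc2 −0.21 and Klrc1 −0.13, whereas Klrd1 had 0.07 and Klrk1 0.06. The median over all genes was −0.21, so relative to it Klrd1, Klrk1 and Klrc1 lay above, at 0.28, 0.27 and 0.08, and Klrc2 at 0.00. The 7 NK cell markers moved with this comparison, as they summed to 16220 CPM in 14-day lung and 19970 in naive lung, with Ncr1 at 665.3 against 896.3. Among other lists, the ILC1 list had 62.78 against 30.55 CPM. The part of these lists in the result was not tested.

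In blood at 14 days, 1 of 8 members was called lower, beside 2.67% of all genes, and 0 higher, beside 0.712%. It was Klrc3, with −0.69 (−0.81 to −0.58), and it was not called when ratios were centred on the median of all genes (−0.53) or when cells were thinned (−0.54), nor in cells low in dissociation genes (−0.46). Other marker lists moved with this comparison, and their part was not tested, since in 14-day against naive blood the ILC1 list had 58.9 against 20.8 CPM, the NK cell list 24140 against 20490 and the myeloid list 191.7 against 122.4. The NK cell sum rose mostly by Gzma (13980 against 10880 CPM), whereas Ncr1 (1384 against 1533) and Eomes (191.5 against 272.1) were lower. In the myeloid list Lyz2 rose most (89.27 against 0.6004 CPM), with a UMI in 0.435% of 14-day blood cells. Klrd1 had 0.14 and Klrc1 0.11, whereas Klrk1 had −0.22, Klre1 −0.24, Klrc2 −0.26, Klri2 −0.32 and Klri1 −0.34. Klrd1 and Klrc1 were thus above the naive level in blood, although Klrc1 was at −0.14 when cells with a UMI of a T cell, B cell or myeloid marker were left out. The median over all genes was −0.167 in this comparison. Of all genes, 41.64%, 39.23% and 37.4% lay below Klrk1, Klre1 and Klrc2.

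At 6 h, compared with the same naive groups, none of the 8 members was called in either tissue. In lung 0 were higher, beside 0.316% of all genes, and 0 lower, beside 0.0316%. In blood 0 were higher, beside 0.206%, and 0 lower, beside 0.174%. The 8 log2 ratios lay between −0.34 and −0.07 in lung and between −0.47 and −0.06 in blood, all below 0, and Klri1 was the lowest in both. Centred on the median of all genes (−0.07 and −0.06), Klrk1 in lung and Klrd1 in blood were at 0.00, and the other ratios stayed below 0.

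Lung cells of 14-day mice held a group with UMIs of both Itga1 (CD49a) and Pmepa1, 605 cells or 16.9% of the group, against 60 cells or 1.28% at 6 h and 24 cells in naive lung. These genes are known as transcripts of tissue residency and of the response to TGF-beta. Beside cells with neither gene, the 605 cells had 181.9 against 248.7 CPM of Klrc1, 287.9 against 426.0 of Klrc2, 9.67 against 22.9 of Klri1 and 915.6 against 1052 of Klrk1. All 8 members were lower in them, with log2 ratios from −0.20 for Klrk1 to −1.25 for Klri1 and an interval below 0 in each case. Comparisons of gates, here and below, come without a share or median over all genes. Depth of the cells was not matched between gates. At 6 h, the 60 cells had Klri1 at −1.16 (−2.61 to −0.03) and Klrc1 in the opposite direction, at 0.30 (0.03 to 0.55).

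When cells with a UMI of either gene were left out in both groups, the comparison of 14-day with naive lung changed. Klrc1 was then higher at 14 days, at 0.13 (0.06 to 0.19), as were Klrc2 at 0.08 (0.03 to 0.13), Klrd1 at 0.21 and Klrk1 at 0.14. Klri1 was still lower, at −0.45 (−0.65 to −0.24), but no longer by 1.5-fold, and Klre1 was at −0.21. This rests on 1841 cells at 14 days and 3143 cells of naive mice, and no median over all genes was taken for it.

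Cells with UMIs of 2 or more ILC1 markers (Tmem176a, Tmem176b, Cxcr6, Il7r) numbered 102 in lung and 70 in blood at 14 days and fewer than 50 in every other group, where no value was taken. In these cells the inhibitory members Klrc1 and Klri1 were higher. The other 6 had lower values, with intervals that included 0 for Klrc3 and Klrk1 in blood. Klrc1 had 353.1 against 203.4 CPM in lung and 500.6 against 275.2 in blood, compared with cells without such a marker. Klri1 had 32.6 against 16.8 CPM in lung and 65.6 against 38.8 in blood. In contrast, Klri2 had 153.4 against 382.6 CPM in lung and 131.1 against 420.3 in blood, a log2 ratio of −1.32 (−1.54 to −1.11) and −1.68 (−2.01 to −1.37). Klre1 had −1.20 in lung and −0.70 in blood, Klrc3 −0.99 and −0.10, Klrc2 −0.71 and −0.30, and Klrd1 −0.60 and −0.38. A gate is a range of counts and no cell type, and such cells had more UMIs (a median of 10510 and 8292) than cells without these markers (6834 and 7481).

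Along maturation, most members were lower in cells with UMIs of Cd27 and none of Itgam than in cells with Itgam alone. Klrd1 and Klre1 had intervals below 0 in 6 of 6 groups, with median log2 ratios of −0.27 and −0.28, and Klrc2 in 5 of 6, with −0.26. Klrc1 went the other way in 5 of 6 groups, with intervals above 0 in 4 and a ratio of 0.42 in naive lung. The exception was 14-day lung, where it was lower in the Cd27 gate, at −0.22, with 192.1 against 223.1 CPM. Klri1 behaved alike, higher in 5 groups, with intervals above 0 in 3, and lower in 14-day lung, at −0.51. Klrk1 differed little between these gates, between −0.19 and 0.05.

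Cells without UMIs of Klrg1 and Cx3cr1, both found in late NK cells, had more Klri2 than cells with both, in 6 of 6 groups and with the interval above 0 in 5, by a median log2 ratio of 0.23. Klrk1 was also higher in 5 of 6 groups, by a median of 0.15. Klrc1 and Klri1 had their lowest ratios in 14-day lung, where cells without the 2 genes had −0.63 and −0.87. Klrc2 (−0.375) and Klre1 (−0.29) were lower there too. Intervals were also below 0 for Klrc1 in naive lung (−0.15) and naive blood (−0.22), and for Klri1 in 14-day blood (−0.47). In naive blood Klri1 was higher, at 0.29. Between the 10.0% of cells with most Ccl4, a chemokine made on activation, and the rest, Klrc3 was lower in the Ccl4-high cells in 6 of 6 groups, with the interval below 0 in 4 and a median of −0.46, while Klri1 had a median of −0.44, Klrc2 of −0.19 and the other 5 members between −0.07 and 0.02. Cells with both Mki67 and Top2a numbered 14 to 35 per group, so no value was taken for dividing cells.

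**Figure D4:**
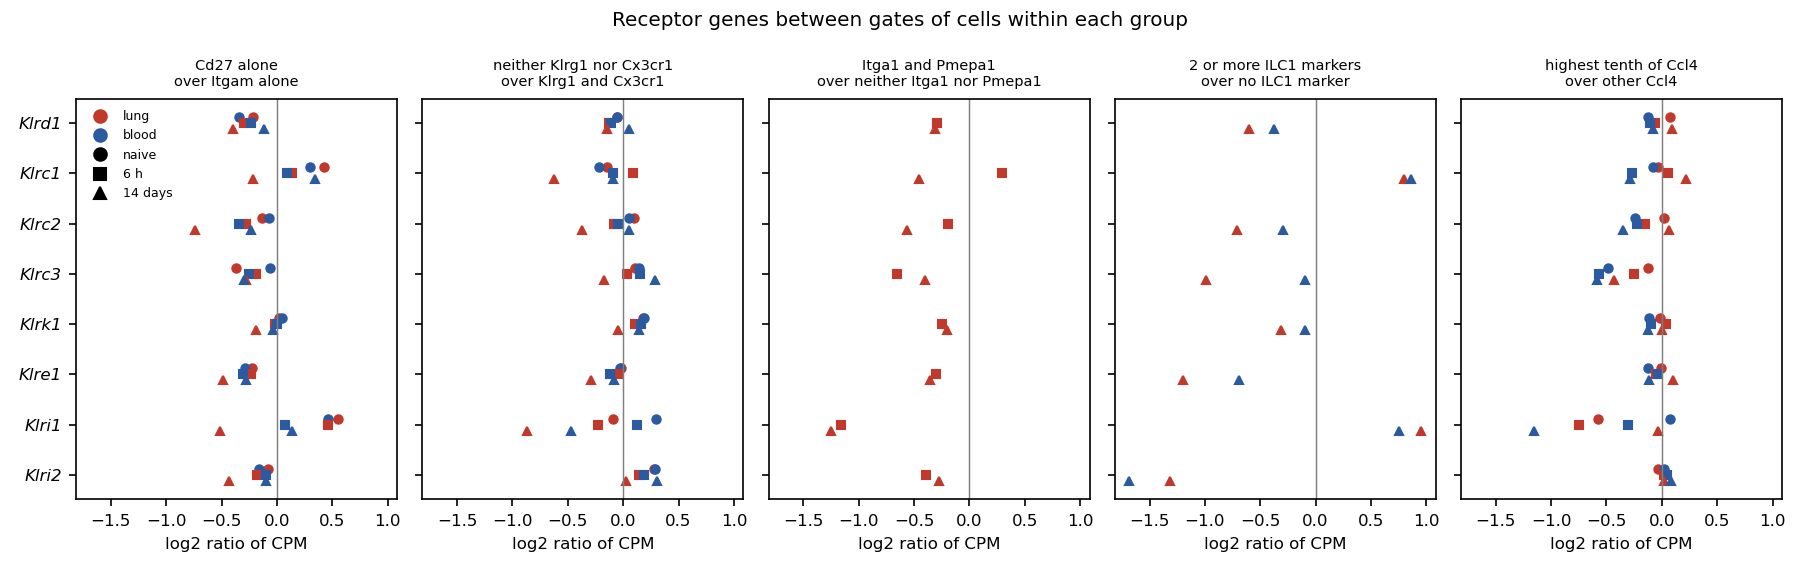
Log2 ratio of CPM between gates of cells (x axes) for each gene (rows), in lung (red) and blood (blue) of the 3 libraries (symbols), for groups with at least 50 cells in both gates. In cells with 2 or more ILC1 markers Klrc1 and Klri1 lie right of 0 and the other 6 genes left of it, down to −1.68 for Klri2.

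The CD94 partners were then read together in single cells thinned to 3000 UMIs, where a transcript of low level is missed in many cells that have it. Cells with Klrc2 or Klrc3 and no Klrc1 were the most frequent class, 42.3% to 49.3% of cells. Klrc1 together with Klrc2 or Klrc3 was found in 22.3%, 18.6% and 19.1% of lung cells and in 28.2%, 25.6% and 26.8% of blood cells of the naive, 6 h and 14-day libraries. Klrc1 alone was found in 9.69% to 14.7% of cells. No Klrc gene was found in 20.3%, 24.5% and 24.2% of lung cells and in 12.8%, 15.6% and 13.9% of blood cells, and most of these had a Klrd1 UMI (19.0% of all cells in naive lung). The share of cells without any Klrc UMI was thus higher in lung in each library, by more than counting error.

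Some members occurred together in the same cells and others apart. Among cells with Klrc3, 71.0% to 82.2% had Klrc2, against 58.1% to 71.7% of cells without Klrc3, and the intervals were separate in 6 of 6 groups. These 2 genes share windows of sequence, as given above, which can also place their reads together, and this was not tested. Klrc1 and Klri2 occurred apart, since 43.7% to 52.3% of cells with Klrc1 had Klri2 and 59.2% to 70.0% of cells without it, with separate intervals in 6 of 6 groups. Klrc2 was also less frequent in cells with Klrc1 (54.7% to 71.1% against 61.5% to 75.5%), with separate intervals in 4 of 6. Klrc1 shares windows with Klrc2 too, and how this bears on these shares was not tested. Klrd1, although the chain that Klrc1 needs, had a UMI in 89.8% to 96.4% of cells with Klrc1 and 90.8% to 96.0% of cells without it.

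The genes most like each of 3 members over cells were taken from 3606 genes with at least 50 CPM, by the mean over the 6 groups of Pearson's r of log counts in thinned cells (2063 to 4640 cells per group, all cells of a group sharing a library). For Klrd1 they were Gzma (granzyme A, mean r 0.14), Ccl5 (a chemokine, 0.13) and Klre1 (0.11). For Klrk1 they were Klrc2 (0.09), Ms4a4b (a membrane protein of T and NK cells, 0.09) and Zbtb20 (a zinc finger factor, 0.08). For Klrc1 they were Klrb1b (the inhibitory receptor NKR-P1B, 0.20), Cd226 (the activating receptor DNAM-1, 0.19) and St6galnac3 (a sialyltransferase, 0.18). These correlations are weak and describe sparse counts.

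The lowest values for Klrc1, looked at after the values had been seen, were those of Klra4 (−0.32) and Klra8 (−0.19), the activating receptors Ly49D and Ly49H. A Klra4 UMI was present in 39.5%, 35.9% and 30.7% of lung cells with Klrc1 and in 66.6%, 66.9% and 64.8% of lung cells without it, in the naive, 6 h and 14-day libraries. In blood these shares were 34.7%, 35.8% and 26.5% against 67.8%, 67.3% and 62.9%. Klra8 was present in 41.6% to 52.4% of cells with Klrc1 and 61.7% to 70.4% of cells without it. Klrb1b, the gene most like Klrc1 above, showed the reverse, with 63.6% against 44.9% in naive lung and 43.8% against 26.3% in naive blood. Klra4, Klra8 and Klrb1b were picked by their r with Klrc1 in the same cells, so these shares describe that choice and do not test it. The Klra genes are close copies of each other, so their reads may be split between them.

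**Figure D5:**
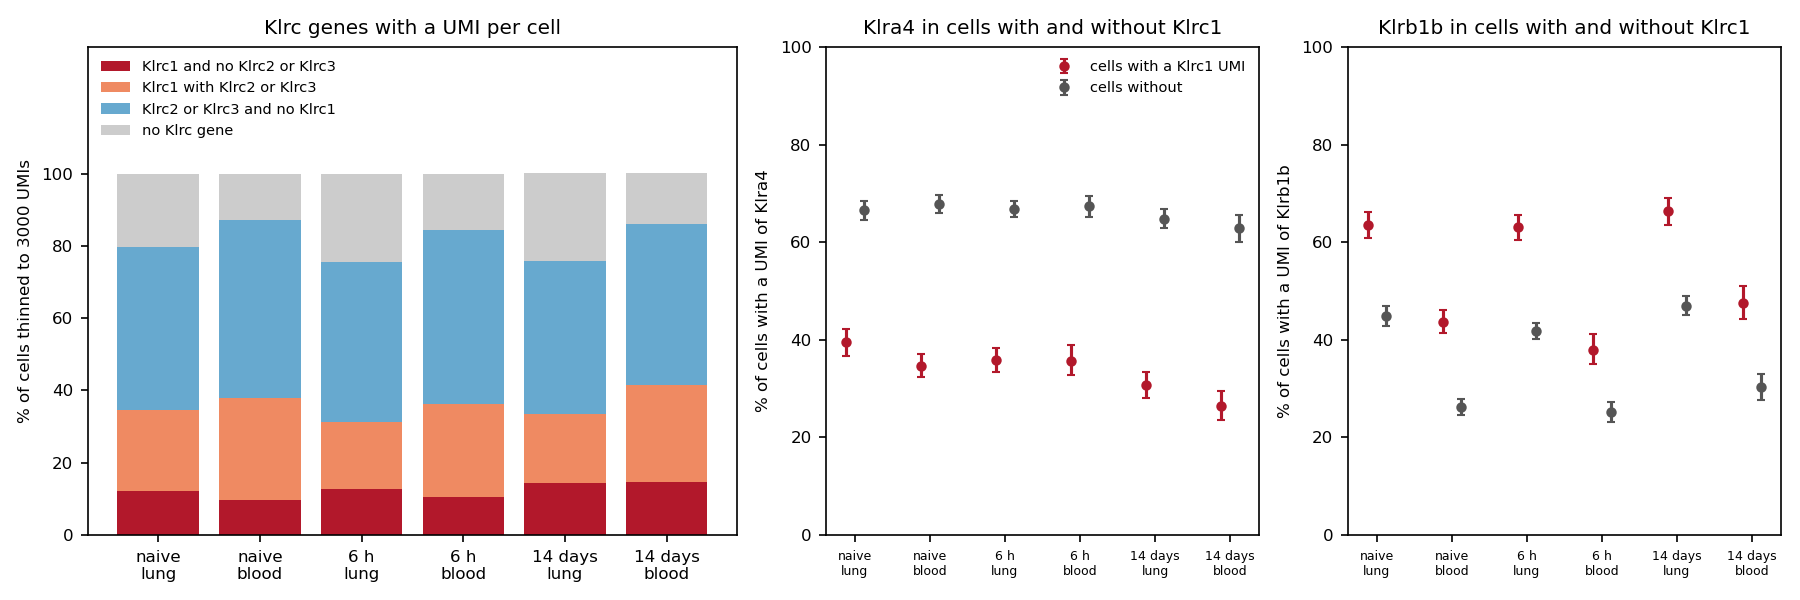
Left, share of cells thinned to 3000 UMIs (y axis, %) in 4 classes by their UMIs of Klrc1, Klrc2 and Klrc3 in the 6 groups (bars). Middle and right, share of cells with a UMI of Klra4 or Klrb1b (y axes, %) among cells with (red) and without (grey) a Klrc1 UMI, with exact 95% intervals. Klra4 is less and Klrb1b more frequent in cells with Klrc1 in all 6 groups. Both genes were picked by their correlation with Klrc1 in these same cells, so the panels describe that choice and do not test it.

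Of 29 listed genes of ligands, adaptors and signaling proteins of these receptors, 25 are in the files and 20 passed the level of 20 CPM. The adaptor genes were Tyrobp (DAP12), which serves the activating CD94 receptors and NKG2D, and Hcst (DAP10), which serves NKG2D. Tyrobp had 2310 and 2475 CPM in naive lung and blood, 2376 and 2510 at 6 h, and 1934 and 2828 at 14 days. The 14-day library thus held both the lowest and the highest value, and its log2 ratio of lung over blood was −0.55 (−0.57 to −0.53). Hcst had 507.5 and 532.8 CPM in naive lung and blood, 513.9 and 547.0 at 6 h, and 653.9 and 751.4 at 14 days, with log2 ratios of 14 days over naive of 0.37 in lung and 0.50 in blood, short of 1.5-fold. The ratio of Hcst to Klrk1 was 0.54 in naive and 0.66 in 14-day lung, and 0.35 in naive and 0.58 in 14-day blood.

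Some genes of kinases, of other signaling proteins and of a ligand passed 1.5-fold in a comparison, whereas Tyrobp and Hcst did not in any. Sizes below that limit did not all go this way. In blood at 14 days over naive, Hcst (0.50) moved more than Syk (−0.43), Lck (−0.42) and Raet1e (−0.395). In naive mice, 3 of the 20 genes were higher in lung and 2 lower, with the background given above for that comparison. These were Lyn (a Src family kinase, 493.6 against 222.7 CPM), Pik3r1 (a regulatory subunit of PI3 kinase, 951.1 against 436.6) and Raet1e (an NKG2D ligand, 170.7 against 61.9), and Pik3cd (a catalytic subunit of PI3 kinase, 176.4 against 285.1) and Vav1 (an exchange factor, 68.3 against 111.8). The same 5 genes were called at 6 h in the same directions. At 14 days in lung, 4 of 20 were lower than in naive lung, beside 10.5% of all genes, and 0 higher, beside 3.53%, namely Raet1e with 63.6 CPM and a log2 ratio of −1.42 (−1.51 to −1.34), Pik3r1 with −1.07, Lyn with −1.01 and Syk (a kinase downstream of DAP12, 112.5 against 203.8 CPM) with −0.86. The median over the 20 was −0.22, beside −0.21 over all genes. Raet1e is a close copy of other Raet1 genes, so its counts are uncertain. Lung over blood at 14 days had 0 of the 20 higher and 2 lower, beside 3.13% of all genes. The lower genes were Lat (an adaptor of T and NK cells) with −0.61 and Plcg2 (phospholipase C gamma) with −0.64. In blood at 14 days and in both tissues at 6 h over naive, 0 of 20 were called.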

How the data were processed

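The 3 droplet libraries of sorted NK cells (naive, 6 h, 14 days) were analysed. The authors deposited UMI counts per gene and hashtag for every barcode, made with Cell Ranger (7.1.0 per the file headers, another release in the methods) on GRCm38.p6 with GENCODE M23 and not normalized. Processing notes also name Seurat 5.0. The files held 1388825 to 1796296 barcodes, before cell calling.

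Barcodes with 800 to 5000 genes and at most 6% mitochondrial counts were kept, and tissue was assigned where 90% or more of tag counts were of 1 tag. This left out 2.08% to 4.08% of barcodes, among them doublets between tissues, and doublets within a tissue stayed in. Counts were summed per group, scaled to CPM and compared as ratios with exact intervals conditional on both counts. Shares have Clopper-Pearson intervals at 95%. Cells were thinned to 3000 UMIs, which left out 6 to 86 cells per group. Free RNA was bounded from markers of other cell types, at least 20 counts in barcodes of at most 100 UMIs. Named genes are the members, listed pathway genes past 1.5-fold with the 2 adaptors, and the 3 genes most like Klrd1, Klrc1 and Klrk1. The members and lists were chosen with earlier results of these data known. Gene positions are from GENCODE M21. No promoter entry was at hand for Klrd1 and Klri2.

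Lung and blood were also tested over libraries with edgeR 4.0.16 (DESeq2 1.42.0 as an alternative) in R 4.3.3, tested on simulated data as were the intervals. Python 3.11.15, numpy 2.4.6, scipy 1.17.1, pandas 2.3.3 and scikit-image 0.26.0 were used. Alternatives changed the cell filter, the hashtag call, the totals, the weight and depth of cells, free RNA, cells of other types, doublets and the floor.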

Additional observations from a re-analysis of the deposited data

Results flagged for a closer look

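Klrc1 and Klrk1 moved in opposite directions in lung and blood at 14 days over naive. For Klrc1 the lung value was −0.13 and the blood value 0.108 (log2), and for Klrk1 they were 0.059 and −0.224. The distance between tissues was larger than counting error, at −0.24 (−0.31 to −0.17) for Klrc1 and 0.28 (0.25 to 0.32) for Klrk1, but with 1 library per time point the difference was not tested. The median over all genes was −0.208 in lung and −0.167 in blood. Relative to it, Klrc1 lay above in both tissues, and Klrk1 lay above in lung and below in blood. The value of Klrc1 in lung turned to 0.08 when centred on the median of all genes and to 0.13 without cells that had a UMI of Itga1 or Pmepa1, and that in blood turned to −0.14 without cells that had a UMI of a T cell, B cell or myeloid marker. Groups hold 1 sample each, so samples were not compared within a group.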

How the results depend on the processing

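Of 84 counts of members past 1.5-fold under 12 alternatives, 79 stayed within 1.5 times the value given. All 8 members passed the floor, so the alternative without it could not change a count. A fall from 3 to 2 was taken as within that range, so the loss of Klri1 in naive lung over blood is among those kept. In blood at 14 days over naive the count fell from 1 to 0 when ratios were centred on the median of all genes and when cells were thinned. For lung over blood at 6 h it fell from 2 to 1 when centred, and from 2 to 1 at 6 h and at 14 days when cells with a UMI of a T cell, B cell or myeloid marker were left out, a filter that removed 88.5% to 92.7% of cells since NK cells hold Trbc1 and Trbc2 transcripts. Of the alternatives added after seeing the data, leaving out cells with a UMI of Itga1 or Pmepa1 gave 0 in lung at 14 days over naive, and cells with at most 1 UMI of dissociation genes gave 0 in blood at 14 days and 1 in blood at 6 h, which was Klri1. The causes were not tested. In all, 728 ratios were recomputed, most of them of ratios that were not called. None of the called ratios changed sign, but a ratio past 1.5-fold has far to move before it does. Uncalled ratios near 0 changed sign in up to 6 of 56 under 1 setting. The edgeR test of lung against blood gave 4 members, 4 with DESeq2, 4 with no floor, 7 without scaling factors and between 1 and 8 when a library was left out, while the share of all genes called lower ran from 0.743% to 27.2% over these settings. No paired analysis was possible because each time point is 1 library where times are compared, whereas the edgeR test pairs lung and blood of a library. Depth limits Klri1 and Klrc3 most, which had the widest intervals.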
